A study of Mus musculus with 12 samples.

Results

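The genes that carry a cell from the end of DNA replication through mitosis to division were measured in sorted mouse haematopoietic stem cells. They are 54 genes, given by name: the mitotic cyclins and their kinase, the spindle kinases and kinesins, the spindle checkpoint, the chromosomal passenger complex, the kinetochore, condensin, the machinery of anaphase and cytokinesis, and the factors FOXM1 and B-MYB (Mybl2). Their probes were found by gene name among the 37008 genes on the array, with no use of the measured group differences. All 54 were found. Where a gene had more than 1 probe, which was so for 34 of them, the brightest stood for it. All 54 passed the filter on dim probes, and 48 were well above background on all 12 arrays. The exceptions were Gtse1 with 4 arrays, Cdk1 and Anln with 10 each, and Bub1b, Dlgap5 and Melk with 11 each. Gtse1 passed through the POL5551 arrays, 3 of its 4.

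The cells came from male mice in 4 groups of 3, with 1 single-colour array per mouse. Controls were sham-operated. Continuous infusion of POL5551, which blocks the receptor CXCR4 for the chemokine CXCL12, ran for 14 days at 100 mg/kg per day. The other mice received granulocyte colony-stimulating factor (G-CSF) by injection, 100 ug/kg each time at intervals of 12 h, either 4 times over 2 days or 9 times over 5 days. Marrow was enriched for Kit-bearing cells and then sorted for LSK SLAM cells, which are negative for lineage markers and positive for Sca-1 and Kit and are gated on SLAM receptors. All 4 groups went through this enrichment and sort. The labels give neither strain nor age, and they name no operation for the G-CSF mice and no injection for the sham mice. The groups hold different mice, and 3 arrays per group set the precision.

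As background, entry into mitosis needs cyclin A2 and cyclin B bound to CDK1, whose inhibitory phosphates CDC25 phosphatases remove. Polo-like and Aurora kinases then build the spindle, and the checkpoint proteins hold the anaphase-promoting complex (APC/C) inactive until all kinetochores are attached, after which CDC20 and the APC/C trigger destruction of securin and cyclin B. Haematopoietic stem cells in undisturbed adult marrow are mostly quiescent, and these transcripts are made mostly by cells in cycle. Transcription of the family is held low in quiescence by the DREAM complex, whose MuvB core binds the CHR element, and is raised late in the cycle when B-MYB and FOXM1 join MuvB. NF-Y, which binds CCAAT, acts at many of the same promoters.

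Letters of both elements stood in many of the members' promoters, which is why sequences of genes the results turn on are shown here. RefSeq promoters (build GRCm38.p6, from 250 bases before to 50 bases after a gene's start) matched 44 of the 54 members with 48 promoters. Ccna2, Cdc25c, Aurkb, Tpx2, Dlgap5, Kif20a, Incenp, Spc24, Smc4 and Foxm1 had no entry. The common core forms of a CHR, TTTGAA or TTCGAA, were searched on both strands, as was CCAAT, and matches of the searched letters can overlap only at their ends. TTTGAA or TTCGAA stood in 72.9% of the members' promoters against 19.2% of all 32851 promoters in the table. CCAAT stood in 72.9% against 37.4%, and at more than 1 place in 47.9% against 11.7%. Both kinds stood together in 30 of the 48 promoters, or 62.5%, against 7.52% of all. A match is a description of the letters and not a measured site. The 150 bases before the start of 8 members follow, 5′ to 3′ on the strand of the gene, with capitals marking the searched letters on either strand (on the other strand TTTGAA reads TTCAAA, and CCAAT is read as ATTGG).
Cdk1 (chr10:69352913-69353062, minus strand): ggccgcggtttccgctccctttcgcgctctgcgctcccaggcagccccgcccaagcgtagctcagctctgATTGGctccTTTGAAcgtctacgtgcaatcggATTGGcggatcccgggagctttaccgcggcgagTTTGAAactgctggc
Cdc20 (chr4:118437344-118437493, minus strand): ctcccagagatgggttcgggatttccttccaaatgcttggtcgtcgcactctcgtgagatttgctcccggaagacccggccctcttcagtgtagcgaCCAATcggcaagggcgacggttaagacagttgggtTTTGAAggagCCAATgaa
Ccnb1 (chr13:100786487-100786636, minus strand): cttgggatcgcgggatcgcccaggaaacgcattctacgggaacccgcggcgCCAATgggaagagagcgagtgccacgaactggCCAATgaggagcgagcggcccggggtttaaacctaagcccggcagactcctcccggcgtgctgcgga
Ccnb2 (chr9:70421555-70421704, minus strand): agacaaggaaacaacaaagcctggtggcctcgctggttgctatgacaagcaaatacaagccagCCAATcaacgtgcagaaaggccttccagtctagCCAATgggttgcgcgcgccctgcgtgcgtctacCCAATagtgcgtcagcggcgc
Top2a (chr11:99024190-99024339, minus strand): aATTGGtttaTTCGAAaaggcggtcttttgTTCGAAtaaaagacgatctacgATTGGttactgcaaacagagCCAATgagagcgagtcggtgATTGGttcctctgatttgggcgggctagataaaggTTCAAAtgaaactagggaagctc
Hmmr (chr11:40733438-40733587, minus strand): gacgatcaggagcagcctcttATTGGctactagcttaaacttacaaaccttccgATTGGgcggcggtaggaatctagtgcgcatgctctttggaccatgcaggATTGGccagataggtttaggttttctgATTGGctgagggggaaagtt
Kif2c (chr4:117178773-117178922, minus strand): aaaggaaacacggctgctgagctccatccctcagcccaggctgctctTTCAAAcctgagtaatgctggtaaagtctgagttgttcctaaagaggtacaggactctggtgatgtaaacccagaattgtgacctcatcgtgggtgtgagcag
Gtse1 (chr15:85859557-85859706, plus strand): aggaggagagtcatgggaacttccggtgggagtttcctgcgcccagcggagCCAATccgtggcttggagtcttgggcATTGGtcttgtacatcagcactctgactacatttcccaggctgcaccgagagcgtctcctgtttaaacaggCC
Cdk1 held TTTGAA at 2 places and ATTGG at 2 in this stretch, and Cdc20 held both kinds close to its start. Ccnb1, Ccnb2 and Hmmr showed only CCAAT or its complement here. Kif2c showed only TTCAAA, and the capitals that end the Gtse1 line are the beginning of a CCAAT that runs across the start. Gtse1 has another listed start, and the stretch before it (chr15:85859796-85859945, plus strand) holds none of these letters.

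A level below is the log2 of the processed signal minus the 75th percentile of that array, so 0 is the brightness that 75 in 100 probes do not exceed. Levels are compared between groups for the same probe, and where probes are set side by side it is as array signal and not as amount of message. A gene was called where limma's adjusted p, after Benjamini and Hochberg over all 33191 genes tested (33189 for comparisons with the 2-day group), was under 0.05. The mean level of a member over the 12 arrays ran from -4.85 to 4.51.

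Sham mouse 1 stood apart from the other arrays. Its 75th percentile of signal was the lowest at 1901, against 2405 to 6810 on the rest, and the median level of off-tissue probes (olfactory, vomeronasal, taste and keratin-associated genes, 1540 probes, which mark background) was the highest at -1.60, against -2.40 to -5.17 on the rest. Those probes averaged -2.78 ± 1.02 (SD, n = 3) in sham mice, -4.59 ± 0.54 after POL5551, -2.57 ± 0.16 after 2 days and -3.69 ± 0.39 after 5 days of G-CSF. POL5551 arrays had the darkest background probes. The 12 arrays lay on 6 slides, and slide 3 held all the 2-day arrays and no other. Kit was between 2.61 and 3.22 on every array, whereas Slamf1 (the SLAM receptor CD150) was at -4.12 and not well above background on sham mouse 1, against -2.20 to -0.30 on the other arrays. In bulk RNA, fewer cycling cells and less message per cell cannot be told apart.

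**Figure D1:**
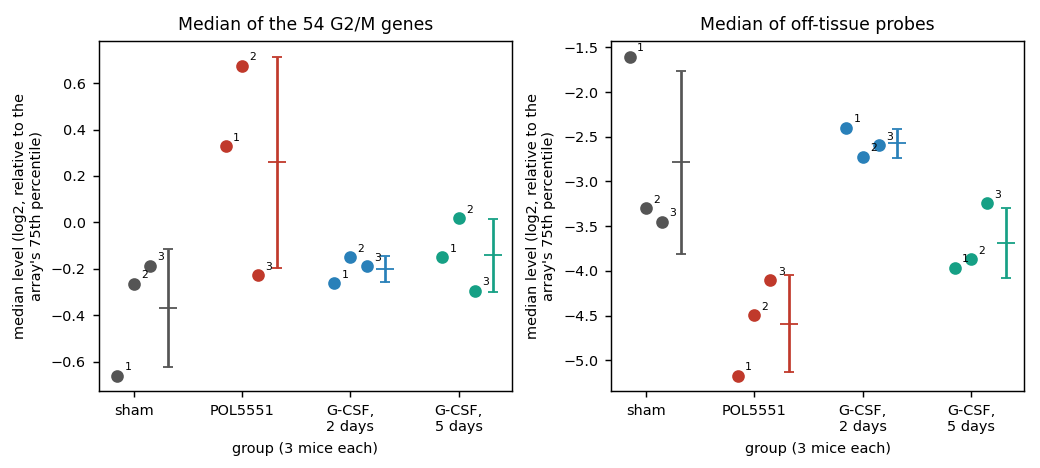
Median level of the 54 members (log2 of signal relative to the 75th percentile of the array) on each of the 12 arrays (left) and of the off-tissue probes (right), with 1 numbered point per mouse and bars for mean and SD of each group of 3. POL5551 mice 1 and 2 have the highest members' medians, 0.33 and 0.68, while POL5551 mouse 3 lies at -0.23 within the range of the sham mice.

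On single arrays the members' median was -0.66, -0.26 and -0.19 in the sham mice and 0.33, 0.68 and -0.23 after POL5551. It was -0.26, -0.15 and -0.19 after 2 days of G-CSF, and -0.15, 0.02 and -0.30 after 5 days. The POL5551 group overlapped every other group through mouse 3, the lowest of its group for 45 of the 54 members, while mouse 2 was the highest for 41. The group means were -0.37 ± 0.25 (SD, n = 3) for sham, 0.26 ± 0.46 for POL5551, -0.20 ± 0.06 for 2-day and -0.14 ± 0.16 for 5-day G-CSF. The median SD of a member within its group was 0.52 in sham, 0.57 after POL5551, 0.29 after 2 days and 0.28 after 5 days of G-CSF. POL5551 had the highest mean of the 4 groups for 39 members, and sham had the lowest for 31. No member passed the moderated F test over the 4 groups, which 1.35% of all genes did. The smallest adjusted p was that of Gtse1 at 0.068, followed by Tpx2 at 0.071 and Kif2c at 0.072.

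**Figure D2:**
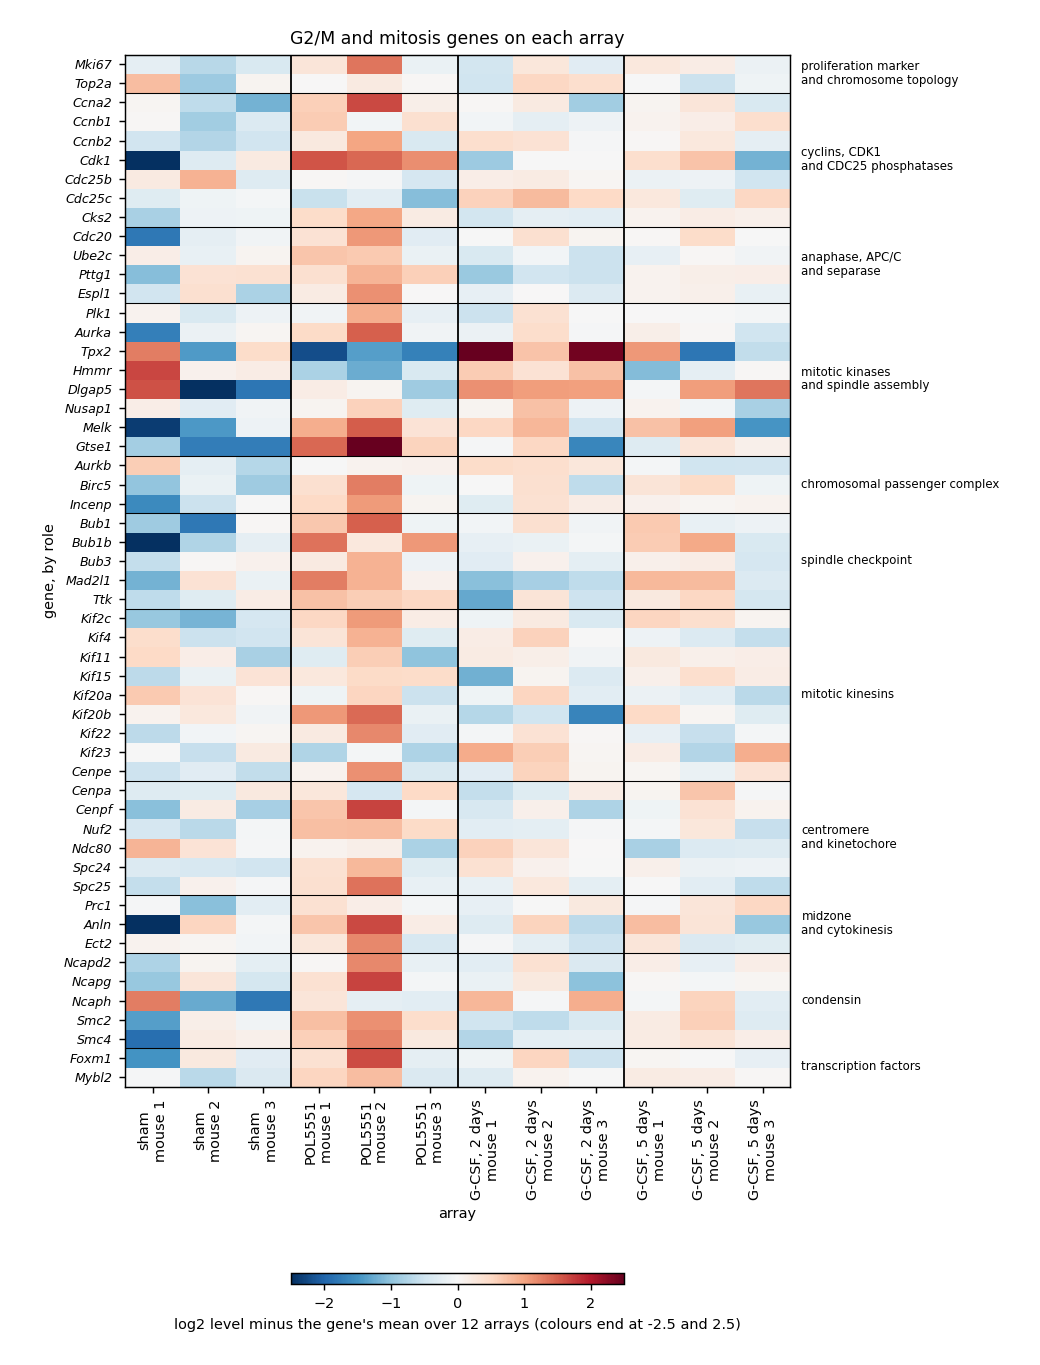
Level of each of the 54 members on each array minus the mean of that gene over the 12 arrays (log2 units, colour scale), with genes in order of role and arrays in order of group. The columns of POL5551 mice 1 and 2 are high for most genes, the column of sham mouse 1 is the lowest of its group for 24 genes and the highest for 22, and Tpx2 and Hmmr run the other way.

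The first comparison asked what 14 days of CXCR4 blockade did to these genes. No member that was above background in both groups passed the test. Of the 54 members, 46 lay above sham and 8 below, with a median difference of 0.72, while 35.9% of all genes lay above sham and the median gene was at -0.52. As probe signal, 36 of the 54 members stood above the median of all tested genes, and their median percentile was 63.9. The part of signal strength in the gap between 0.72 and -0.52 was not tested. The groups did not overlap for 17 members that were higher after POL5551 and for Hmmr, which was lower. Passenger complex and checkpoint genes had the highest medians, 1.20 and 1.07, and kinesins among the lowest at 0.56.

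By limma's test, 1 of 54 members was called, Gtse1, which entered the test only through the POL5551 arrays in which it is high and so supports nothing here, against 2.28% of all genes, of which 0.178% were called higher and 2.11% lower. Non-overlap with higher values took in 17 members (31.5%), against 10.6% of all genes, and non-overlap with lower values 1 member, against 25.9%. At an unadjusted p under 0.05 there were 21 members higher and 1 lower, against 8.33% and 26.7% of all genes. The 17 and the 21 include Gtse1, whose place in them is likewise only a description. Without sham mouse 1 no member was called (71 genes were), the members' median was 0.65 against -0.26 for all genes, and 47 members lay above 0. With the median of each array as its zero in place of the 75th percentile, the median of all genes moved from -0.52 to -0.12 and that of the members from 0.72 to 1.12. When the off-tissue median of the array entered the fit as a covariate, the members' median was 0.20 against -0.06 for all genes. In that fit 36 members lay above 0, Cdk1, Aurka, Cdc20 and Foxm1 lay below 0, and no gene at all was called. The off-tissue median was lower on every POL5551 array (-4.10 or less) than on any other array (-3.97 or more). The fit therefore cannot separate background from treatment.

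**Figure D3:**
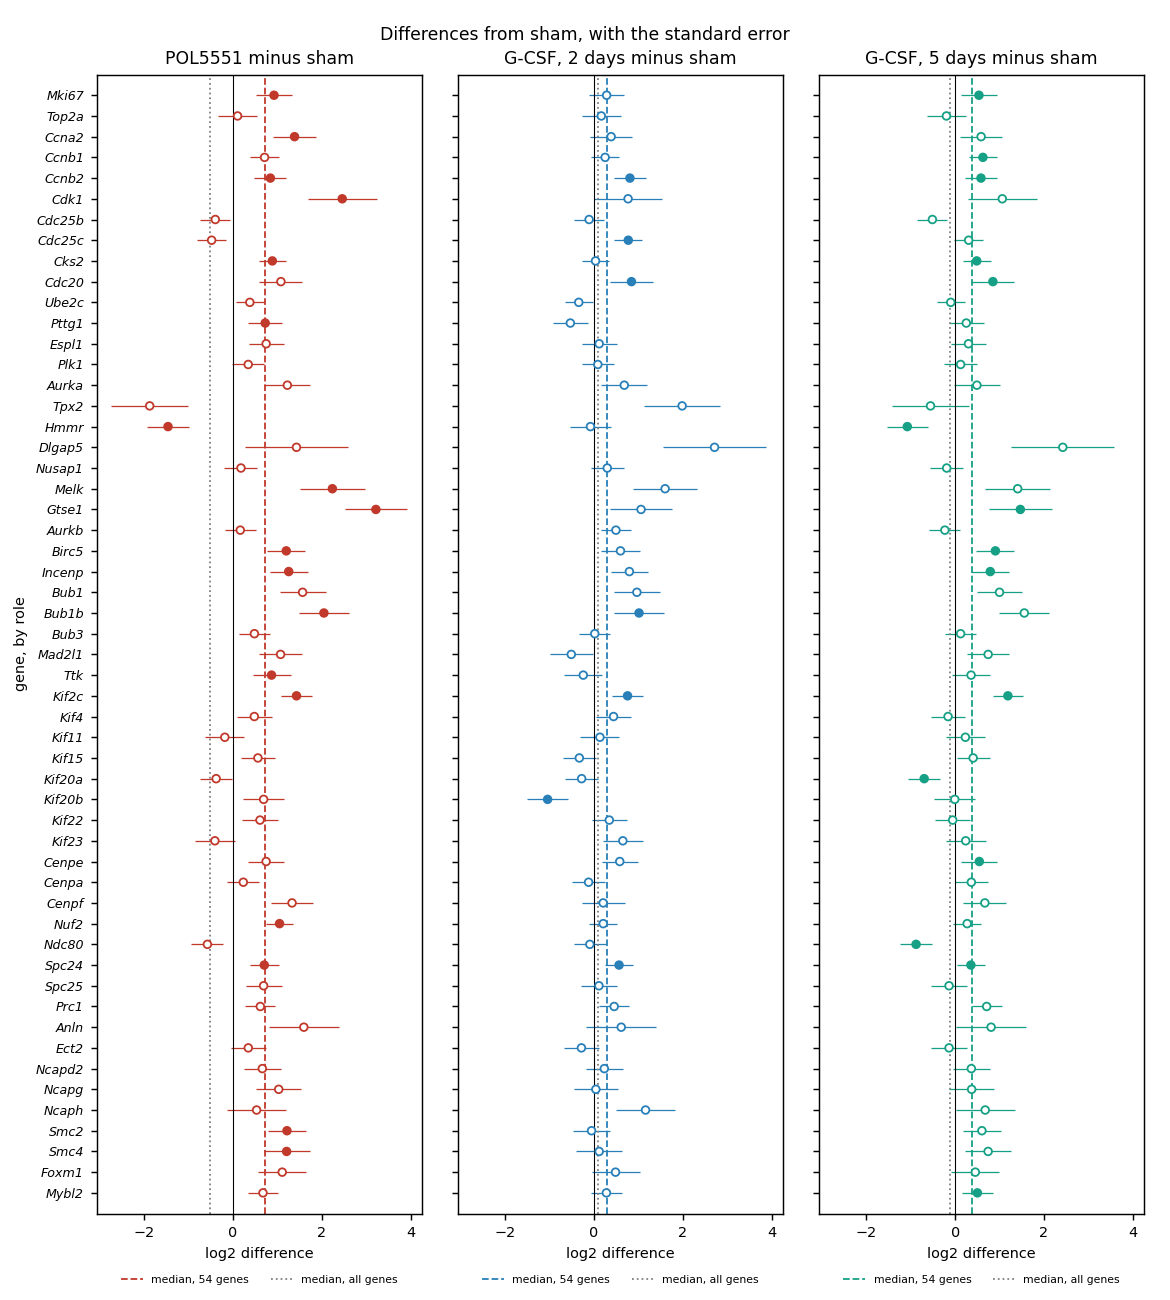
Log2 difference from sham of each of the 54 members after POL5551, 2 days of G-CSF and 5 days of G-CSF, in order of role, with bars of 1 standard error from limma, filled points where the groups do not overlap, a dashed line at the members' median and a dotted line at that of all genes. All 3 sets of differences use the same sham mice. After POL5551, 46 points lie right of 0, and Gtse1 lies farthest right at 3.22.

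Gtse1, a G2 and S phase expressed protein that binds microtubules, lay at -5.69, -6.58 and -6.57 in sham mice 1, 2 and 3, at -3.42, -1.47 and -4.30 after POL5551, at -4.87, -4.32 and -6.48 after 2 days and at -5.17, -4.55 and -4.73 after 5 days of G-CSF. It was well above background in all 3 POL5551 mice, in no sham mouse, and mouse 2 of the POL5551 group was the brightest. It met the filter through the group where it is high, so its values are a description, and the fold is a bound. Gtse1 was at least 3.00-fold higher after POL5551 (fitted log2 difference 3.22, adjusted p = 0.046). With no filter on dim probes it was not called (adjusted p = 0.051). The call was kept when sham mouse 2, sham mouse 3 or POL5551 mouse 3 was left out and lost when any of the other 9 arrays was, with adjusted p from 0.030 to 0.14 and 0.11 without sham mouse 1. Within slides, POL5551 mouse 1 was 2.28 above sham mouse 1, and POL5551 mouse 2 was 5.10 above the mean of sham mice 2 and 3. The Gtse1 probe lies on chromosome 15 at 85706887 to 85706946 on build mm9, the build of the array design.

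Mki67, the gene of the Ki-67 proliferation antigen, lay at 0.70, 0.23 and 0.54 in sham mice, 1.23, 2.27 and 0.75 after POL5551, 0.47, 1.21 and 0.64 after 2 days and 1.19, 1.11 and 0.77 after 5 days of G-CSF. Every POL5551 mouse was above every sham mouse, mouse 3 only just. The difference of 0.93 (SE 0.40), or 1.90-fold, did not pass (adjusted p = 0.13). Top2a, the topoisomerase that untangles chromosomes, lay at 0.56, -1.12 and -0.14 in sham mice, -0.21, 0.01 and -0.19 after POL5551, -0.71, 0.29 and 0.21 after 2 days and -0.22, -0.75 and -0.32 after 5 days. Its sham mice spanned all the other groups, and the POL5551 difference was 0.11 (SE 0.43, adjusted p = 0.86).

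Of the 7 genes of cyclins, CDK1, its subunit Cks2 and the CDC25 phosphatases, 5 lay above sham after POL5551 and 4 of those did not overlap it, with none called. Cdk1, the kinase that drives mitosis, lay at -6.06, -3.28 and -2.72 in sham mice, -1.37, -1.51 and -1.80 after POL5551, -3.85, -2.96 and -2.96 after 2 days and -2.53, -2.23 and -4.12 after 5 days of G-CSF. All POL5551 mice lay above the other 9 mice, and sham mouse 1 was far below its group. Cdk1 was well above background in 2 of 3 sham and 2 of 3 5-day mice, as Bub1b, Dlgap5 and Melk were in 2 of 3 sham mice. The difference was 2.46 (SE 0.77, 5.51-fold, adjusted p = 0.080), and without sham mouse 1 it was 1.44 (adjusted p = 0.22).

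Ccna2, the cyclin of S phase and G2, lay at -0.55, -1.24 and -1.79 in sham mice, 0.00, 1.06 and -0.46 after POL5551, -0.56, -0.38 and -1.47 after 2 days and -0.53, -0.30 and -0.99 after 5 days. POL5551 mice were all above sham mice, by 1.39 on average (SE 0.48, adjusted p = 0.093). Ccnb1, the main mitotic cyclin, lay at 2.20, 1.30 and 1.83 in sham mice, 2.80, 2.10 and 2.56 after POL5551, 2.10, 1.94 and 2.04 after 2 days and 2.26, 2.34 and 2.59 after 5 days. POL5551 mouse 2 fell within the sham range, and the difference was 0.71 (SE 0.32, adjusted p = 0.14). Ccnb2, the second B-type cyclin, lay at -1.03, -1.29 and -1.04 in sham mice, -0.31, 0.43 and -0.95 after POL5551, -0.15, -0.20 and -0.59 after 2 days and -0.53, -0.31 and -0.78 after 5 days. For Ccnb2 every treated mouse of all 3 groups lay above every sham mouse, with differences of 0.84, 0.81 and 0.58 and adjusted p of 0.13, 0.54 and 0.55.

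Cdc25c, a phosphatase that activates CDK1, was 1 of the 2 genes of this role below sham after POL5551. Its levels were -2.32, -2.12 and -2.07 in sham mice, -2.58, -2.29 and -3.08 after POL5551, -1.44, -1.24 and -1.52 after 2 days and -1.76, -2.33 and -1.51 after 5 days of G-CSF. The 2-day mice lay above both the sham and the POL5551 mice without overlap. The difference from sham was -0.48 (adjusted p = 0.26) after POL5551, and Cdc25b, its relative, was at -0.40 (adjusted p = 0.37).

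All 4 genes of the anaphase group, Cdc20, Pttg1, Ube2c and Espl1, lay above sham after POL5551, and none was called. Cdc20, the activator of the APC/C, lay at 1.25, 2.81 and 2.95 in sham mice, 3.40, 4.12 and 2.74 after POL5551, 3.01, 3.44 and 3.09 after 2 days and 3.05, 3.49 and 3.01 after 5 days. Sham mouse 1 was the lowest of all 12, and POL5551 mouse 3 lay within the sham range. The difference was 1.08 (SE 0.48, adjusted p = 0.14), and 0.54 without sham mouse 1. Pttg1, the securin that restrains separase, lay at -1.03, 0.40 and 0.42 in sham mice, 0.45, 0.89 and 0.64 after POL5551, -0.88, -0.44 and -0.49 after 2 days and 0.14, 0.19 and 0.21 after 5 days. Its POL5551 mice were above sham without overlap, by 0.73 (SE 0.39, adjusted p = 0.19), and the 2-day mice were low.

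Among the 8 kinases and spindle assembly genes, 6 lay above sham after POL5551, and Hmmr and Tpx2 lay below. Hmmr, a microtubule-binding spindle protein and hyaluronan receptor, lay at 6.18, 4.61 and 4.71 in sham mice, 3.71, 3.27 and 4.13 after POL5551, 5.14, 4.87 and 5.24 after 2 days and 3.44, 4.29 and 4.54 after 5 days. Every POL5551 mouse and every 5-day mouse lay below every sham mouse, and sham mouse 1 was the highest of all. The POL5551 difference was -1.46 (SE 0.46, 2.75-fold lower, adjusted p = 0.081), and -0.95 without sham mouse 1. Tpx2, which activates Aurora A on the spindle, lay at 3.20, 0.50 and 2.37 in sham mice, -0.30, 0.53 and 0.22 after POL5551, 5.07, 2.62 and 4.33 after 2 days and 3.00, 0.10 and 1.30 after 5 days. It scattered widely in every group except POL5551, sham mouse 2 lay inside the POL5551 range, and the difference was -1.87 (SE 0.86, adjusted p = 0.15).

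Aurka, the kinase that matures spindle poles, lay at -1.93, -0.36 and -0.16 in sham mice, 0.26, 1.28 and -0.31 after POL5551, -0.37, 0.22 and -0.25 after 2 days and -0.07, -0.19 and -0.72 after 5 days. POL5551 mouse 3 fell within the sham range and sham mouse 1 was the lowest of all, and the difference of 1.23 (SE 0.52, adjusted p = 0.13) was 0.67 without it. Plk1, the polo-like kinase of mitotic entry and exit, lay at -0.61, -1.07 and -0.83 in sham mice, -0.78, 0.21 and -0.91 after POL5551, -1.24, -0.31 and -0.71 after 2 days and -0.69, -0.70 and -0.76 after 5 days. Of the POL5551 mice only mouse 2 was outside the sham range, and the difference was 0.34 (SE 0.37, adjusted p = 0.47). Melk, a kinase of cycling progenitors, lay at -4.09, -3.15 and -1.84 in sham mice, -0.80, -0.19 and -1.37 after POL5551, -1.20, -0.88 and -2.19 after 2 days and -0.98, -0.70 and -3.18 after 5 days. POL5551 mice were above sham mice without overlap, by 2.24 (SE 0.73, 4.72-fold, adjusted p = 0.084).

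The chromosomal passenger complex corrects faulty kinetochore attachments, and all 3 of its genes here lay above sham after POL5551. Birc5, or survivin, lay at 0.77, 1.59 and 0.87 in sham mice, 2.15, 3.04 and 1.64 after POL5551, 1.74, 2.16 and 1.12 after 2 days and 2.07, 2.23 and 1.65 after 5 days. Both the POL5551 and the 5-day mice lay above sham without overlap, by 1.20 (adjusted p = 0.098) and 0.90 (adjusted p = 0.46). Aurkb, the kinase of the complex, lay at 1.03, 0.18 and -0.30 in sham mice, 0.40, 0.50 and 0.51 after POL5551, 0.86, 0.84 and 0.69 after 2 days and 0.36, -0.09 and -0.07 after 5 days. The POL5551 mice lay inside the sham range (difference 0.17, SE 0.35, adjusted p = 0.72), and Incenp, the scaffold, was at 1.26 (SE 0.42, adjusted p = 0.090) without overlap.

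All 5 spindle checkpoint genes lay above sham after POL5551, Bub1b and Ttk without overlap. Bub1b, the BUBR1 inhibitor of the APC/C, lay at -5.54, -3.80 and -3.28 in sham mice, -1.70, -2.80 and -1.97 after POL5551, -3.25, -3.23 and -3.11 after 2 days and -2.42, -2.09 and -3.44 after 5 days. Both the POL5551 and the 2-day mice were above every sham mouse. The POL5551 difference was 2.05 (SE 0.57, 4.14-fold, adjusted p = 0.066), and 1.38 (adjusted p = 0.18) without sham mouse 1. Mad2l1, the gene of the checkpoint effector MAD2, lay at -1.43, 0.12 and -0.42 in sham mice, 1.03, 0.61 and -0.14 after POL5551, -1.29, -1.08 and -0.89 after 2 days and 0.56, 0.54 and -0.60 after 5 days. POL5551 mouse 3 fell within the sham range, and the difference was 1.07 (SE 0.48, adjusted p = 0.14).

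Of 9 mitotic kinesins, 6 lay above sham after POL5551, and Kif11, Kif20a and Kif23 lay below. Kif2c, the kinesin that depolymerizes microtubules at centromeres, lay at -0.13, -0.35 and 0.39 in sham mice, 1.34, 1.88 and 0.99 after POL5551, 0.70, 1.03 and 0.44 after 2 days and 1.36, 1.23 and 0.89 after 5 days. All 9 treated mice lay above all 3 sham mice. The POL5551 difference of 1.43 (SE 0.34, 2.70-fold) missed the threshold with an adjusted p of 0.053, and it was 1.38 (adjusted p = 0.14) without sham mouse 1. It was 1.47 on slide 1 and 1.86 on slide 2, the slides that held both sham and POL5551 arrays. Tested only among genes whose probes were well above background on all 12 arrays, Kif2c was called (adjusted p = 0.037), and Gtse1 was no longer in the test. Kif2c was the 1 call among 49 members there, while calls over all genes rose from 758 to 2027.

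Kif20a, which carries the passenger complex to the midzone, lay at -1.07, -1.39 and -1.69 in sham mice, -1.84, -1.18 and -2.27 after POL5551, -1.82, -1.19 and -1.98 after 2 days and -1.86, -1.98 and -2.40 after 5 days. The 5-day mice lay below sham without overlap, and the POL5551 mice overlapped it. Kif20b, a kinesin of abscission, lay at -1.26, -1.09 and -1.45 in sham mice, -0.27, 0.06 and -1.52 after POL5551, -2.08, -1.85 and -3.02 after 2 days and -0.86, -1.31 and -1.67 after 5 days. The 2-day mice were the lowest group, below sham without overlap, and POL5551 mice 1 and 2 were the highest.

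In the centromere and kinetochore group, 5 of 6 lay above sham after POL5551, and Ndc80 lay below. Ndc80, the microtubule-binding arm of the outer kinetochore, lay at 1.38, 0.87 and 0.50 in sham mice, 0.61, 0.68 and -0.27 after POL5551, 1.09, 0.83 and 0.54 after 2 days and -0.28, 0.18 and 0.21 after 5 days. The 5-day mice lay below sham without overlap. For its partner Nuf2 all POL5551 mice, at 1.92, 1.96 and 1.67, lay above the sham mice, at 0.77, 0.50 and 1.14. The POL5551 differences were -0.57 (adjusted p = 0.24) for Ndc80 and 1.05 (adjusted p = 0.073) for Nuf2, whose other probe lay at -0.37. The 3 midzone and cytokinesis genes, Prc1, Anln and Ect2, lay above sham and overlapped it, with a median of 0.62.

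All 5 condensin genes, which compact chromosomes, lay above sham after POL5551 with a median of 1.03, and Smc2 and Smc4 did not overlap it. Smc2, a core ATPase of condensin, lay at -0.98, 0.54 and 0.29 in sham mice, 1.14, 1.54 and 0.82 after POL5551, -0.10, -0.24 and 0.02 after 2 days and 0.60, 0.99 and 0.07 after 5 days. Sham mouse 1 was well below the other sham mice, and the difference was 1.22 (SE 0.42, adjusted p = 0.094). For Smc4 it was 1.21 (adjusted p = 0.13), and 0.52 without sham mouse 1.

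Foxm1, the forkhead factor of G2 genes, lay at -1.09, 0.63 and 0.11 in sham mice, 0.78, 2.03 and 0.17 after POL5551, 0.29, 0.93 and -0.13 after 2 days and 0.44, 0.38 and 0.19 after 5 days. POL5551 mouse 3 lay within the sham range, and the difference was 1.11 (SE 0.54, adjusted p = 0.16). Mybl2, which encodes B-MYB, lay at 1.48, 0.84 and 1.15 in sham mice, 2.06, 2.29 and 1.16 after POL5551, 1.21, 1.60 and 1.50 after 2 days and 1.72, 1.71 and 1.54 after 5 days. Its POL5551 mouse 3 also overlapped sham, and the difference was 0.68 (SE 0.34, adjusted p = 0.17). Split by promoter letters, the 27 members with both kinds in a promoter had a median POL5551 difference of 0.66, and the 8 with neither had 0.89, with no test made.

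**Figure D4:**
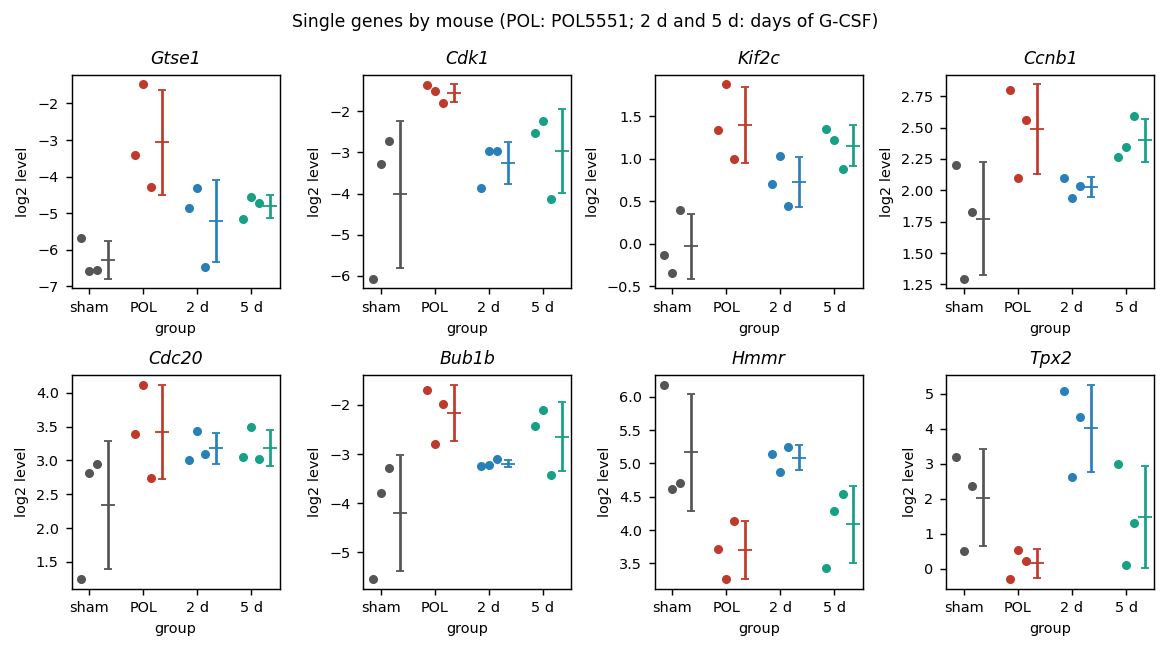
Levels on the 12 arrays (log2 of signal relative to the 75th percentile of the array) of Gtse1, Cdk1, Kif2c, Ccnb1, Cdc20, Bub1b, Hmmr and Tpx2, with 1 point per mouse and bars for the mean and SD of each group of 3. Kif2c shows all 9 treated mice above the 3 sham mice, and Hmmr shows the POL5551 mice below the sham mice.

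Slides 1, 2 and 5 each held a POL5551 array beside an array of another group. On slide 1, POL5551 mouse 1 was above sham mouse 1 for 39 members (median 0.77, all genes -1.15). On slide 2, POL5551 mouse 2 was above the mean of sham mice 2 and 3 for 48 members (median 1.21, all genes -0.18). On slide 5, POL5551 mouse 3 was above the 5-day mouse beside it for 17 members (median -0.16, all genes -0.03).

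The second comparison asked what 2 days of G-CSF did. No member passed the test. The members' median was 0.28 against 0.10 for all genes. Of the 54, 41 lay above 0, a larger share than the 57% of all genes. Kinases and spindle genes had the highest median at 0.87, with Dlgap5 at 2.71 (SE 1.16) and Tpx2 at 1.98 (SE 0.86) the largest of the 8. Checkpoint genes lay at 0.02 and anaphase genes at -0.11.

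No member was called by limma, against 0.0331% of all genes, and 6 were higher and 1 lower at an unadjusted p under 0.05, against 5.94% and 3.18%. The groups did not overlap for 6 members that were higher (6.79% of all genes) and 1 that was lower (5.33%). The higher ones were Ccnb2, Cdc20, Cdc25c, Bub1b, Kif2c and Spc24, and the lower one was Kif20b. Bub1b had the largest difference of these at 1.01 (SE 0.57, adjusted p = 0.63), then Cdc20 at 0.84 (adjusted p = 0.64). Kif20b was at -1.05 (SE 0.46, adjusted p = 0.53). Dlgap5, a spindle protein, lay at -0.71, -7.01 and -4.10 in sham mice and -1.16, -1.25 and -1.27 after 2 days. The 2-day mice thus lay inside the wide sham range. Without sham mouse 1, 34 members lay above 0, and the median was 0.25 against 0.21 for all genes. Dlgap5 was called in that fit, where calls over all genes rose from 11 to 166. With all arrays, the other Dlgap5 probe, well above background on all 12, was at 0.60 against 2.71 for the chosen probe. Slide 3 held all the 2-day arrays, so slide and treatment cannot be told apart in this comparison.

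The third comparison asked what 5 days of G-CSF did. No member passed the test here either. The median was 0.39 against -0.13 for all genes, and 40 of 54 lay above 0, against 42.5% of all genes. Passenger complex, checkpoint and midzone genes had medians of 0.79, 0.74 and 0.71, and cyclins, CDK1 and CDC25 genes 0.58. Hmmr, Ndc80 and Kif20a lay below sham without overlap.

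No member was called by limma, against 0.0663% of all genes, and 2 were higher and 2 lower at an unadjusted p under 0.05, against 3.23% and 7.9%. Non-overlap with higher values took in 12 members (4.41% of all genes) and with lower values 3 (8.16%). The 12 were Mki67, Ccnb1, Ccnb2, Cdc20, Kif2c, Cenpe, Birc5, Incenp, Spc24, Cks2, Mybl2 and Gtse1. Gtse1 was in no sham mouse above background and entered the test only through the POL5551 arrays, so its place among the 12 supports nothing. Kif2c was at 1.19 (SE 0.34, adjusted p = 0.32), Bub1b at 1.55 (SE 0.57, adjusted p = 0.38) and Cdc20 at 0.85 (adjusted p = 0.52). Hmmr was at -1.08 (adjusted p = 0.43), Ndc80 at -0.88 (adjusted p = 0.41) and Kif20a at -0.70 (adjusted p = 0.49). Without sham mouse 1 the median was 0.21 against -0.04 for all genes, with 39 above 0. The 3 comparisons share the sham mice, so likeness between them is not independent.

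The fourth comparison set 5 against 2 days of G-CSF. No member was called, and no gene at all was (0%). At an unadjusted p under 0.05, 2 members were higher and 1 lower, against 3.46% and 12.7% of all genes. The groups did not overlap for 8 members that were higher after 5 days (11.7% of all genes), among them Ccnb1, Mad2l1 and Pttg1, and 6 that were lower (23.6%), among them Hmmr, Aurkb and Ndc80. Tpx2 had the largest difference, at -2.54 (SE 0.86, adjusted p = 0.25), and Mad2l1 was at 1.25 (SE 0.48, adjusted p = 0.27). The members' median was 0.10 against -0.27 for all genes, and 32 members lay above 0, against 39% of all genes.

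POL5551 against 5 days of G-CSF gave no call among the members, against 0.0603% of all genes. At an unadjusted p under 0.05, Nuf2 and Gtse1 were higher and Cdc25c lower, against 2.22% and 9.42% of all genes. Top2a, Cdk1, Aurkb, Nuf2, Pttg1, Cks2 and Gtse1 were higher after POL5551 without overlap, 7 members (10.3% of all genes), and none was lower (15.3%). Nuf2 was at 0.78 (SE 0.31, adjusted p = 0.41), Cdk1 at 1.40 (SE 0.77, adjusted p = 0.46) and Gtse1 at 1.75 (adjusted p = 0.41). Gtse1 was in this test only through the POL5551 arrays, so its difference and its place in these counts support nothing. The median was 0.38 against -0.28, and 45 members lay above 0, against 37% of all genes.

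POL5551 against 2 days of G-CSF was the comparison with most calls. Kif20b, Mad2l1, Smc2, Pttg1 and Gtse1 were higher after POL5551, and Tpx2, Cdc25c and Hmmr were lower. These 8 of 54 members (14.8%) stand against 30.6% of all genes called, the 5 higher against 5.87% and the 3 lower against 24.7%. The members' share is below that of all genes for both directions together and for calls lower after POL5551. For calls higher after POL5551 it is above that of all genes. The slide of the 2-day arrays cannot be told apart from the treatment.

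Kif20b was higher by 1.74 (SE 0.46, adjusted p = 0.023), with all POL5551 mice above all 2-day mice. Mad2l1 was higher by 1.59 (SE 0.48, adjusted p = 0.033), Smc2 by 1.27 (adjusted p = 0.043) and Pttg1 by 1.26 (adjusted p = 0.035). Gtse1 was at least 2.77-fold higher (adjusted p = 0.041). Here too it was in the test only through the POL5551 arrays, so its call and its place in the counts support nothing. Tpx2 differed most, at -3.86 (SE 0.86, adjusted p = 0.016), followed by Hmmr at -1.38 (adjusted p = 0.045) and Cdc25c at -1.25 (adjusted p = 0.021). With the mean of all tested probes of a gene, Hmmr was at 0.053 (adjusted p = 0.92) and Pttg1 at 0.28 (adjusted p = 0.44). Non-overlap took in 14 members that were higher (21.8% of all genes) and 7 that were lower (43.9%), and 41 members lay above 0, against 36.2%. The number called was 15 without sham mouse 1, which lies outside both groups and enters only through the pooled spread, and 17450 of all genes were called in that fit. The number of members called was 0 without POL5551 mouse 1 (209 of all genes called), 2-day mouse 1 (102) or 2-day mouse 3 (1819). It was 2 without POL5551 mouse 2 (5983) and 4 without 2-day mouse 2 (5146). Calls over all genes thus fell as well, from 10161 in the main fit. No member was called with the off-tissue covariate, and neither was any other gene.

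The other probes of a gene did not always follow the brightest. Of 50 other tested probes, 38 lay above sham after POL5551, with a median of 0.98, and 33 had the sign of the chosen probe while 17 had the opposite. In 20 of the 34 members with several probes all signs were alike, and in 14 at least 1 probe was opposite. Hmmr, below sham by its brightest probe, lay above sham by the other probes, at 0.71 and 1.61. Kif23, a kinesin of the midzone, had other probes at 1.08 and 0.86, and Cdc25b had another at 1.19, so the 5 other tested probes of members below sham were all above it. For Tpx2, Cdc25c, Kif11, Kif20a and Ndc80 there was a single probe.

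Probes also split the other way. Bub1 was at 1.57 by the chosen probe and -1.64 by another, Kif4 at 0.48 and -1.64, and Mybl2 at 0.68 and -0.81. Likewise Nuf2 was at 1.05 and -0.37, and Pttg1 at 0.73 and -0.845. Prc1 was at 0.62 by the chosen probe and at 1.34, 0.99, -0.13 and -1.59 by the others. Foxm1 was at 1.11 by the chosen probe and at 1.70 and -1.55 by the others. Top2a, near 0 by its chosen probe, lay between 1.12 and 1.94 by its others, and Aurkb at 1.49 by its other. The direction given for these genes is thus that of a probe, and which transcript forms each probe reads was not tested.

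**Figure D5:**
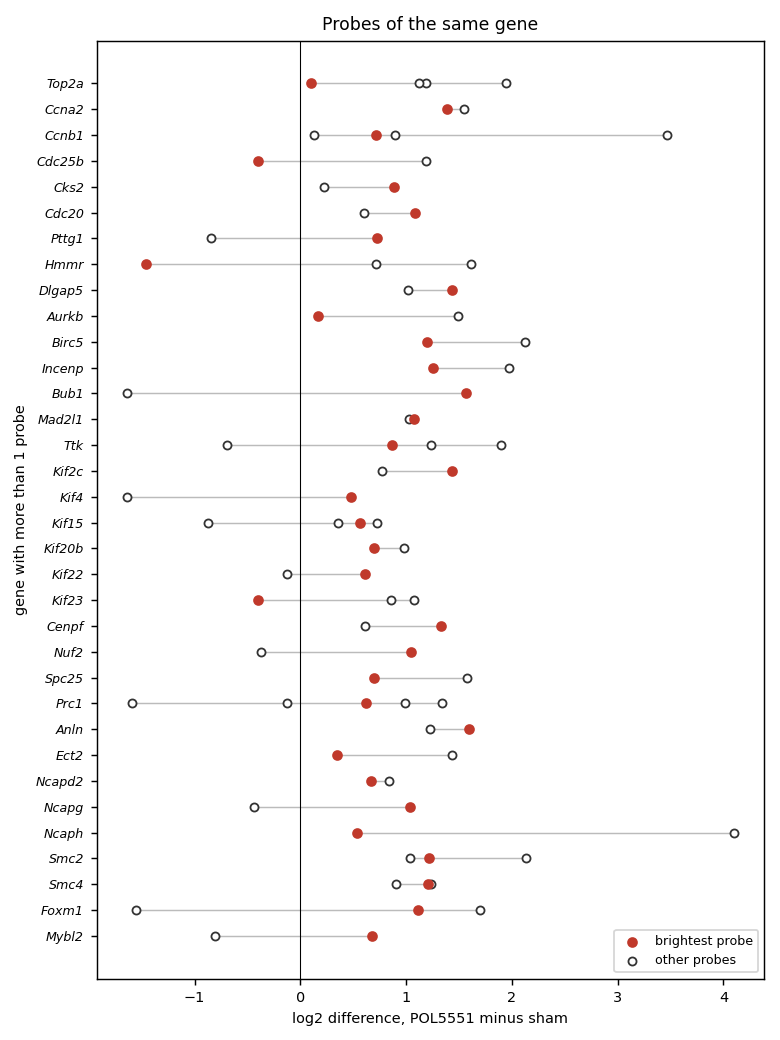
Log2 difference between POL5551 and sham for every tested probe of the members with more than 1 probe, with the brightest, chosen probe marked apart from the others. Of the 50 other probes, 17 lie on the opposite side of 0 from the chosen probe, those of Hmmr and Bub1 among them.

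Neighbouring parts of the pathway were read from lists of genes outside the 54. Of 71 other mitosis genes tested, Cep55, which completes abscission, was called after POL5551 (1.79, SE 0.41, adjusted p = 0.048), 58 lay above sham and the median was 0.86. Cep55 lay at -1.53, -1.47 and -0.44 in sham mice and at 1.39, 0.59 and -0.03 after POL5551, without overlap. Among 17 APC/C subunits and regulators none was called and 15 lay above sham (median 0.88), with Anapc13 highest at 1.41 and Anapc16 lowest at -1.10. Among 17 genes of mitotic entry, its brakes and checkpoint kinases none was called, 14 lay above sham and the median was 1.04. Wee1, the kinase that inhibits CDK1, was the highest of them at 1.61, and Cdc14a the lowest at -0.64. Of 16 DREAM, MuvB and NF-Y genes none was called, 11 lay above sham and the median was 0.66, with E2f4 at 2.72 and Lin9 at -1.11. Of 52 S phase genes none was called, 46 lay above sham and the median was 0.90, with Rpa2 highest at 2.60 and Prim2 lowest at -1.38. None of these lists had a call against sham after either G-CSF course, and their medians lay between -0.06 and 0.21 after 2 days and between 0.28 and 0.38 after 5 days.

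Between POL5551 and 2 days of G-CSF, 7 other mitosis genes were called higher after POL5551, led by the cohesin genes Rad21 at 1.83 and Smc3 at 1.75, Cenpk at 1.66 and Pds5b at 1.59, and 3 lower, Cenpp at -3.21, Cenpc1 at -2.09 and Stag2 at -1.14. The counts of this and the following lists stand against 5.87% of all genes called higher and 24.7% called lower. Of the APC/C list, 5 were called higher, with Anapc10 at 1.64, Anapc1 at 1.22, Cdc26 at 1.13 and Fbxo5 at 1.06 the largest, and Anapc16 was lower at -0.98. Of the S phase list, 6 were higher, among them Pola1 at 1.81, Dtl at 1.26 and Gins1 at 1.14, and Rfc5, Tk1 and Prim2 were lower, at -1.91, -1.31 and -1.16. Of the list of mitotic entry, its brakes and checkpoint kinases, Arpp19, Cdkn1c and Pkmyt1 were called higher. Of the DREAM, MuvB and NF-Y list, Rbl2 and Tfdp2 were called higher, and Lin52, Lin9 and Nfya lower. Cdkn1c, which encodes the quiescence inhibitor p57, lay at 1.56, 1.60 and 1.47 after POL5551 and at -0.29, -0.74 and -0.13 after 2 days, while sham mice were at 0.43, 1.84 and 1.93.

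Markers of other cells differed between the groups by some measures. The log2 of the summed level of 12 erythroid precursor markers was 5.58 to 7.05 in sham mice, 4.73 to 4.98 after POL5551, 6.31 to 6.62 after 2 days and 4.82 to 5.82 after 5 days of G-CSF. That of 12 stromal markers was 3.30 to 4.07 in sham mice, 4.37 to 5.73 after POL5551, 3.77 to 5.51 after 2 days and 3.94 to 5.41 after 5 days. That of 10 endothelial markers was 2.43 to 4.55 in sham mice, 4.58 to 4.82 after POL5551, 3.84 to 4.15 after 2 days and 3.89 to 4.24 after 5 days. By these sums the POL5551 mice did not overlap the sham mice in the 3 lists, but a sum follows its brightest probes. For the erythroid list that was Ermap, at a mean of 5.99 in sham mice and 4.09 after POL5551, and 6 of the 12 markers lay above sham and 6 below, with a median difference of 0.05. The medians of each list on single arrays overlapped between POL5551 and sham for all 3 lists, with the erythroid median at -0.91 to -0.66 in sham mice and -0.71 to -0.58 after POL5551. For granulocyte and monocyte progenitor, megakaryocyte, B lymphoid, T and NK, and mast cell markers the POL5551 and sham ranges overlapped, at 4.71 to 4.86, 4.58 to 4.72, 3.47 to 4.10, 3.34 to 3.99 and 2.71 to 3.09 after POL5551. In sham mice these were 4.62 to 5.18, 3.54 to 4.77, 3.79 to 4.05, 3.35 to 4.23 and 2.66 to 3.02. After POL5551, Gata1 (1.69, adjusted p = 0.043), Gp1ba (at least 2.74-fold, adjusted p = 0.042) and Pdgfrb (3.62, adjusted p = 0.034, well above background in 2 of 3 sham mice) were called higher, and none of 7 sort markers was. The part of such cells in the members' differences was not tested.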

How the data were processed

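Gene expression was measured in sorted LSK SLAM cells of 12 male mice, 3 per group, with 1 array per mouse. Per the labels, RNA was isolated with DNase treatment on the column, labelled chemically with Cy5 and hybridized without a second colour. Per the file headers, Agilent Feature Extraction 11.5.1.1 made the deposited scanner values, which are the fluorescence intensity of each spot after background subtraction and detrending, with no normalization between arrays. The authors also deposited a table of intensity values whose columns share 1 median, used here only as an alternative; how it was made is not given in the sources used here. In that table, the column of a mouse can match the scanner file of another mouse of the same group, so mouse numbers are those of the scanner files.

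Outlier spots were left out, spots of a probe were averaged, and the log2 of the processed signal minus the 75th percentile of the array was taken. Probes well above background on at least 3 arrays were tested, and a gene was its brightest probe. limma 3.58.1 in R 4.3.3 was fitted to the 4 group means over 12 arrays (8 residual and 3.23 prior degrees of freedom), two-sided, with Benjamini-Hochberg adjustment across the tested genes in each of 6 comparisons. With 3 mice a group the smallest exact p is 0.1. A fold to a group not above background is a bound: the bright mean against, per array, the higher of the dimmest signal well above background and the probe's own. Probe coordinates follow the array design (mm9).

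Named members were those called in any comparison, a fixed list of 18, and the 3 largest differences per direction from sham without overlap. Dlgap5, Incenp, Nuf2, Smc4, Cdc25b and the genes of the probe comparison were added after their values were seen. Of the genes outside the members that the rule names, 1 is not reported here. The members, the fixed list, the gene lists and the tests were chosen with earlier results of these data known. The gene lists were other mitosis, APC/C, mitotic entry with its brakes, DREAM with MuvB and NF-Y, S phase and sort markers. Another 8 lists held markers of other cells. The procedure was tested on simulated data. The alternatives tried were other scalings, background corrections, filters, probe rules, blocks by slide or replicate number, array weights, an off-tissue covariate, fits of 2 groups, and leaving out each array.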

Additional observations from a re-analysis of the deposited data

How the results depend on the processing

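Between POL5551 and sham, Gtse1 was the call, 1 of 54 members. The call was lost, leaving 0, with quantile normalization, normexp with quantile normalization, the authors' deposited values or no filter on dim probes. It was also lost with slide as a block, the off-tissue covariate, array weights, or only the groups compared. In these fits the adjusted p of Gtse1 ran from 0.051 to 0.79. The cause was not tested. Of all genes, 758 were called in the main fit, and 0 (off-tissue covariate) to 1106 (slide as a block) in the fits just listed. The number of members called became 2 with the mean of all tested probes (Gtse1 and Ncaph, with 880 of all genes called). The members' median of 0.72 became 1.12 with median scaling, 1.08 with slide as a block and 0.20 with the off-tissue covariate. The 1.08 rests on slides 1 and 2 and takes nothing from POL5551 mouse 3, the lowest of its group for 45 members. Without that mouse and with no block the median was 1.01. Leaving out single arrays gave 0.51 to 1.01, with 0 to 8 calls. The 8 came without sham mouse 3 (Cdk1, Bub1, Bub1b, Kif2c, Incenp, Nuf2, Melk and Gtse1, with 4665 of all genes called). Array weights gave 2 calls after 2 days of G-CSF and 3 between 5 and 2 days, with 837 and 5027 of all genes called. After 5 days, the mean of probes gave 1 call (35 of all genes), and slide as a block moved the median from 0.39 to 1.16. For POL5551 against 5 days, slide as a block moved the median from 0.38 to -0.16. In these slide fits the 5-day group entered only through mouse 2, the only 5-day array on a slide with another group. They thus do not describe the group. Slide 5, which held that mouse, held no sham array. For each gene, 5 days minus sham thus joined 5-day mouse 2 minus POL5551 mouse 3 with POL5551 minus sham on slides 1 and 2. It did not set 5-day mouse 2 directly against sham. The -0.16 is the value of the slide 5 pair, POL5551 mouse 3 minus 5-day mouse 2. For POL5551 against 2 days, the 8 calls (10161 of all genes) became 4 with quantile normalization (5567) and 4 with the authors' values (6086). They became 15 with median scaling (8499), 0 with the off-tissue covariate (0), 17 with array weights (19532) and 14 with only the groups compared (16903). The median became 0.96 with median scaling and 0.10 with the off-tissue covariate.

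Signs reversed with the off-tissue covariate for Cdk1 (-0.39), Aurka (-0.28), Cdc20 (-0.32) and Foxm1 (-0.11) between POL5551 and sham. They also reversed for Mad2l1 (-0.16), Smc2 (-0.077) and Hmmr (0.17) between POL5551 and 2 days. The covariate was lowest on the POL5551 arrays, so these reversals cannot separate background from treatment. With the mean of probes, Hmmr reversed in POL5551 minus sham (0.29), 5 days minus sham (0.20) and POL5551 minus 2 days (0.053), and Mybl2 in POL5551 minus sham (-0.065). With slide as a block, Ndc80 (0.11) and Kif20a (0.17) reversed for 5 days minus sham. In that fit only 5-day mouse 2 stood for its group, and it met sham only by way of POL5551 arrays. By its own levels, 5-day mouse 2 lay below every sham mouse for both genes. Normexp turned Top2a to -0.0013. Leaving out single arrays gave -0.34 to 0.50 for Top2a (lowest without sham mouse 2), -0.0088 to 0.56 for Plk1 (without POL5551 mouse 2) and -0.13 to 0.53 for Aurkb (without sham mouse 3). None of these differences with sham had been called.

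Leaving out single arrays gave 0 to 1 calls and medians of 0.18 to 0.39 after 2 days, 0 calls and 0.21 to 0.49 after 5 days, 0 calls and -0.02 to 0.24 for 5 against 2 days, 0 calls and 0.14 to 0.59 for POL5551 against 5 days, and 0 to 15 calls and 0.20 to 0.80 for POL5551 against 2 days. With the replicate number as a block, 0 members were called between POL5551 and sham (adjusted p of Gtse1 0.058) and 7 between POL5551 and 2 days. Of all genes, 181 and 8450 were called in those comparisons. The numbers did not pair the mice: of 18 same-numbered pairs, 7 had a correlation over 0.1, with a range of -0.31 to 0.26. Slide as a fixed block could be fitted only for POL5551 against sham, 5 days against sham and POL5551 against 5 days. With 3 arrays per group and background levels that differ between groups, genes near background, Gtse1 first, are the least certain.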
